A study of Mus musculus with 16 samples.

Results

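Immediate-early genes were followed in haematopoietic stem cells (HSCs) from 2 compartments of the mouse BM. The 10 genes described here are Fos, Fosb, Jun, Junb, Jund, Atf3, Egr1, Ier2, Dusp1 and Zfp36. They were chosen by name, from general knowledge of the family, but with earlier results of these data known. All 10 were found by symbol among the 46078 genes of the count table.

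Immediate-early genes are transcribed within minutes of a stimulus, without new protein synthesis, and their short-lived mRNAs disappear soon after. Fos and Jun proteins pair through leucine zippers to form AP-1, a transcription factor dimer, and Egr1 is a zinc finger transcription factor switched on by the same kinase cascades. In HSCs, Egr1 is known as a regulator of quiescence and of retention in the BM, and raised Fos, Jun and Egr1 mRNA is also a familiar response of cells to being taken out of their tissue.

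Pools of 30 HSCs (LSK CD48-CD150+) came from the long bones of untreated C57/Bl6 mice. WT mice were compared with Gfra2-/- mice, which lack the neurturin receptor GFRα2 in all tissues and were used as a model of reduced cholinergic innervation. Flushed marrow gave the central HSCs and crushing of the flushed bones gave the endosteal HSCs, so that the handling of the tissue and the compartment cannot be told apart. Ages were not given in the sources used here. There were 4 endosteal and 4 central WT libraries, 4 endosteal and 3 central libraries labelled Gfra2-/-, lettered here in the order of the columns in the table. The labels do not tie libraries to mice, so p-values measure the spread between these libraries.

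The central WT libraries were shallower than all others, with 826487 to 3367289 reads on genes against 4416648 to 18550008 in the other 11. The targeted gene Gfra2 had 0 to 4 counts in the WT libraries. It had 0 or 1 in the central libraries labelled Gfra2-/-, and 2, 47, 1 and 9 in the endosteal ones. Endosteal libraries B and D labelled Gfra2-/- thus had more Gfra2 counts than any WT library. Since the WT counts were themselves so low, Gfra2 counts cannot settle whether a label is right. Fold changes of single genes that rest on endosteal libraries B and D, and counts over the members, are also given without them. Levels given only in CPM, and medians of the gene lists, include them. Levels are given in CPM, counts scaled to the normalized size of the library. HSC identity was checked by Kit (490 to 991 CPM), Hlf (291 to 622 CPM), Gata2 (233 to 668 CPM), Ly6a (106 to 532 CPM), Mecom (75.0 to 434 CPM), Procr (52.1 to 229 CPM), Fgd5 (24.2 to 117 CPM) and Tek (14.8 to 127 CPM), which were present in all 15 libraries. Slamf1, which encodes the sort marker CD150, was read in all 15 as well, but at 6.32 to 134 CPM, and so partly below the highest level of Cd48 (17.4 CPM), which the gate excludes. Flt3, a progenitor gene that is low in HSCs, reached 78.9 CPM, with a median of 46.7 CPM in endosteal libraries labelled Gfra2-/- and of 0.155 CPM in central WT libraries. Markers of other cells were uneven. The summed level of 10 neutrophil and monocyte markers was 322 to 2597 CPM in central WT libraries and 378 to 1479.6 CPM in the other groups. Elane, Mpo, Ctsg and Ly6g were at 0 counts in all central WT libraries, and 2 of the 10 were at 0 in each other group. S100a8 and S100a9 reached 861 and 794 CPM in central WT libraries, with medians of 2.99 and 3.71 CPM. In the other groups they reached at most 1.94 and 10.1 CPM. Endosteal library D labelled Gfra2-/- stood apart in its erythroid (647 CPM) and lymphocyte (1861 CPM) markers. Fewer cells of a type and less mRNA per cell cannot be told apart in pooled samples.

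RefSeq promoter sequences (GRCm38.p6, from 250 bases ahead of the start to 50 bases after it) were at hand for 8 of the 10 genes, without Egr1 and Ier2. The windows of 3 genes are shown: Fos, because its RNA was read in some pools and not in others, Dusp1, because it had the smallest p-value of the members between endosteal genotypes, and Zfp36, because it holds the CArG box, through which serum induces immediate-early genes. Capitals mark TGACG, the half-site of the cAMP response element that CREB and ATF proteins bind, the full element TGACGTCA, the TATAAA box, GCGNGGGCG (the sequence that Egr proteins bind) and the CArG box of serum response factor.
Fos, bases -130 to -1, chr12:85473760-85473889, plus strand: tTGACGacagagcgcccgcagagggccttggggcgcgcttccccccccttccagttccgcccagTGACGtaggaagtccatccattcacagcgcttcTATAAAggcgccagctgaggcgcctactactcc
Dusp1, bases -200 to -71, chr17:26508543-26508672, minus strand: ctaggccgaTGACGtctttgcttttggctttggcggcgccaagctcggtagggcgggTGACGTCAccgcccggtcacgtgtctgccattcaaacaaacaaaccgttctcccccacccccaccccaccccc
Zfp36, bases -130 to -1, chr7:28379229-28379358, minus strand: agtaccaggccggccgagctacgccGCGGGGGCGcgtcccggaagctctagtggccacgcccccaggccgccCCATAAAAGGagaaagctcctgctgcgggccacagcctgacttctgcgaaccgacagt

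Searched on both strands of the whole 300-base windows, TGACG was found in 5 of the 8 promoters (Fos, Fosb, Junb, Atf3 and Dusp1) and in 20.8% of the 32851 RefSeq promoters of the mouse. TGACGTCA, which contains TGACG on both strands, was found in Dusp1 alone, at bases -143 to -136, and in 1.79% of all promoters. The CArG box was found in Zfp36 alone, at bases -58 to -49, against 1.63% of all promoters, and GCGNGGGCG in Fosb and Zfp36, against 5.55%. TATAAA was found in Fos at bases -33 to -28 and in Junb just after its start, against 13.6%. The AP-1 site TGANTCA was in 0 of the 8 windows and in 7.81% of all promoters. The member promoters had a median GC content of 64.2%, against 52.7% for all promoters. For Dusp1, Zfp36 and Atf3 the GENCODE gene reaches beyond the RefSeq start, so other transcripts start further upstream, and the whole Jund window lies upstream of the GENCODE Jund gene. These matches describe letters in a window, not binding.

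Fos was nearly silent outside 5 pools. Fos (chromosome 12, 85473890 to 85477273 in GRCm38, plus strand, 4 exons) encodes the AP-1 partner that cannot pair with itself and needs a Jun protein. In WT libraries A to D, Fos was at 0, 25.9, 0 and 0.163 CPM in endosteal HSCs and at 10.8, 0, 97.6 and 0 CPM in central HSCs. In libraries labelled Gfra2-/-, it was at 0.0675, 0, 37.6 and 0 CPM in endosteal HSCs and at 0, 0 and 4.35 CPM in central HSCs. Reads on Fos were thus concentrated in 1 library of each group, plus a second central WT library, and 8 of the 15 libraries had none. The counts behind the 5 positive libraries were 389, 12, 73, 326 and 34 reads. In the 8 libraries without a read, a count of 0 allows up to 0.162 to 0.994 CPM (3 counts of the total before TMM scaling, counting error only), which is below the 4.35 CPM of the lowest of the 5 positive libraries. When every library was thinned to 826487 reads, Fos was still read in 5 libraries.

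Fosb and Atf3, 2 other inducible bZIP genes, were at the edge of detection. Fosb (chromosome 7, 19302696 to 19310051, minus strand) encodes a close relative of Fos. It had 1 read in all, in central WT library C, which is also the library with the highest Fos. Atf3 (chromosome 1, 191170296 to 191218039, minus strand), a stress-induced factor of the ATF/CREB family, had 2 reads in all, in the central library C labelled Gfra2-/-. Neither gene passed the filter on low counts in any comparison.

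The 3 Jun genes differed in how evenly they were read. Jun (chromosome 4, 95049034 to 95052222, minus strand, a single exon) encodes the strongest activator among the Jun proteins. Jun was at 0.486, 2.86, 0.907 and 44.2 CPM in endosteal and at 13.6, 4.34, 29.4 and 0.336 CPM in the central WT ones, A to D. Among libraries labelled Gfra2-/- it was at 0, 0.151, 0.231 and 29.2 CPM in endosteal and at 1.11, 4.81 and 0.768 CPM in central HSCs. In both endosteal groups, library D stood far above the rest. Of the 4 libraries with Jun above 10 CPM, 2 also had more than 2 reads on Fos and 2 did not, so that high Fos and high Jun were not found in the same set of pools.

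Junb (chromosome 8, 84974484 to 84978718, minus strand) encodes a Jun protein that restrains proliferation and is known to limit HSC expansion. It was at 11.2, 25.5, 10.7 and 11.8 CPM in endosteal and at 32.5, 11.2, 9.36 and 40.7 CPM in the central WT ones, A to D. Among libraries labelled Gfra2-/- it was at 4.39, 24.7, 22.6 and 21.2 CPM in endosteal and at 22.7, 22.1 and 1.66 CPM in central HSCs. Junb was thus present in all 15 pools, and the 4 groups overlapped.

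Jund (chromosome 8, 70698949 to 70700616, plus strand, a single exon) encodes the Jun protein usually made without a stimulus. It was at 5.35, 7.51, 6.80 and 16.4 CPM in endosteal and at 41.6, 28.8, 5.35 and 20.5 CPM in the central WT ones, A to D. Among libraries labelled Gfra2-/- it was at 7.15, 6.65, 8.31 and 0.524 CPM in endosteal and at 14.3, 5.37 and 15.4 CPM in central HSCs. In each genotype all but 1 central library lay above the endosteal median, but the groups overlapped. Reads were counted without regard to strand, and Jun, Junb, Jund, Dusp1 and Zfp36 each share exon sequence with a gene on the opposite strand, so their values are uncertain to that extent. Of these partners, Prdx2, which overlaps Junb, had 38531 reads over the 15 libraries and Ergic1, which overlaps Dusp1, had 6349. Junos, which overlaps Jun, had 61, and Gm11175, which overlaps Jund, had 0.

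Egr1 (chromosome 18, 34859823 to 34864984, plus strand, 2 exons) was low in central WT HSCs. It was at 71.0, 28.9, 0.816 and 34.2 CPM in endosteal and at 9.94, 0, 1.34 and 13.4 CPM in the central WT ones, A to D. Among libraries labelled Gfra2-/- it was at 68.3, 34.8, 12.5 and 9.34 CPM in endosteal and at 52.4, 27.9 and 51.5 CPM in central HSCs. The 4 central WT values lay below all 3 central values of libraries labelled Gfra2-/-, while both endosteal groups ranged widely and overlapped with every other group.

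Ier2 (chromosome 8, 84661331 to 84662852, minus strand, a single exon) encodes a small nuclear protein and was the steadiest member. It was at 61.5, 60.03, 27.0 and 80.4 CPM in endosteal and at 28.0, 31.3, 90.9 and 77.3 CPM in the central WT ones, A to D. Among libraries labelled Gfra2-/- it was at 102, 34.8, 37.8 and 53.3 CPM in endosteal and at 50.9, 62.0 and 50.9 CPM in central HSCs. All 15 libraries stayed within a 3.76-fold range, and the 4 group means lay between 54.6 and 57.2 CPM. Ier2 lies 311.6 kb from Junb, and Jund is on the same chromosome, but the highest library was 24.4-fold above the lowest for Junb and 79.4-fold for Jund.

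Dusp1 and Zfp36 belong to the feedback arm that ends the response. Dusp1 (chromosome 17, 26505590 to 26562128, minus strand) encodes a nuclear phosphatase that inactivates MAP kinases. It was at 7.05, 2.79, 20.1 and 10.9 CPM in endosteal and at 4.52, 59.9, 8.02 and 1.68 CPM in the central WT ones, A to D. Among libraries labelled Gfra2-/- it was at 17.2, 27.9, 35.6 and 71.1 CPM in endosteal and at 6.41, 49.0 and 40.1 CPM in central HSCs. Of the endosteal libraries labelled Gfra2-/-, 3 lay above all endosteal WT libraries and the remaining one lay below the highest of them.

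Zfp36 (chromosome 7, 28376784 to 28380253, minus strand, 2 exons) encodes tristetraprolin, which binds AU-rich elements and sends Fos and other unstable mRNAs to decay. It was at 0.243, 6.18, 27.7 and 40.9 CPM in endosteal and at 2.71, 7.75, 4.01 and 13.8 CPM in the central WT ones, A to D. Among libraries labelled Gfra2-/- it was at 14.4, 5.03, 36.6 and 0 CPM in endosteal and at 13.99, 12.3 and 36.6 CPM in central HSCs. Endosteal values covered nearly the whole range in both genotypes, and all but the highest of the central WT values lay below the 3 central values labelled Gfra2-/-.

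**Figure D1:**
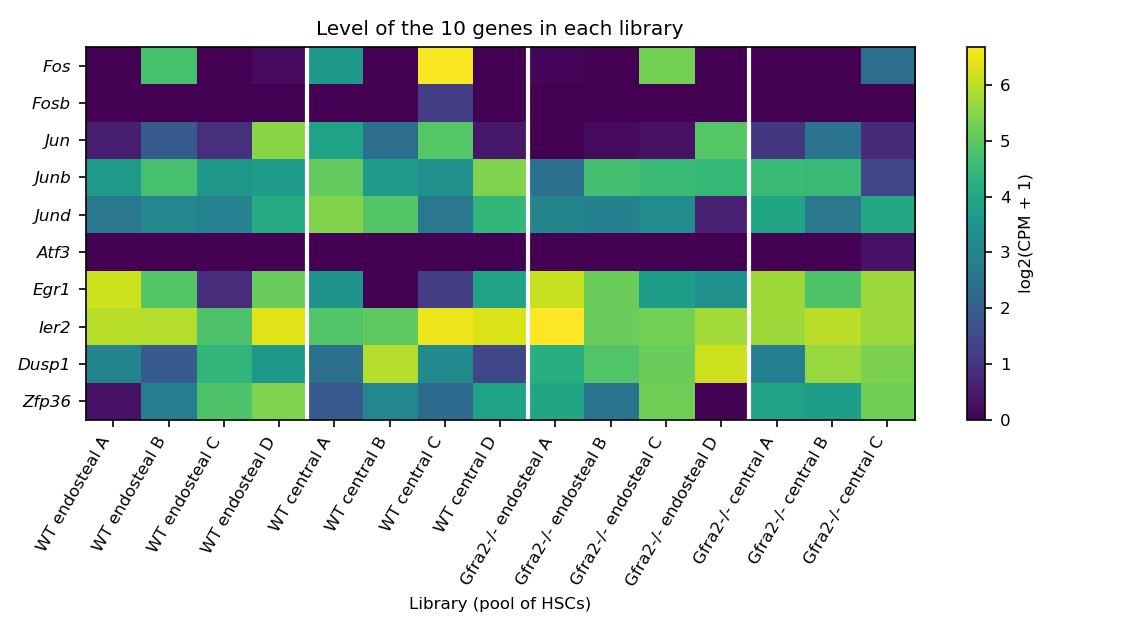
Level of the 10 genes (rows) in the 15 libraries (columns), as log2(CPM + 1) in colour, with white lines between the 4 groups. Ier2 is bright in every column, Fos reaches 97.6 CPM in 1 central WT library and is at 0 counts in 8 libraries, and Fosb and Atf3 are dark nearly throughout.

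**Figure D2:**
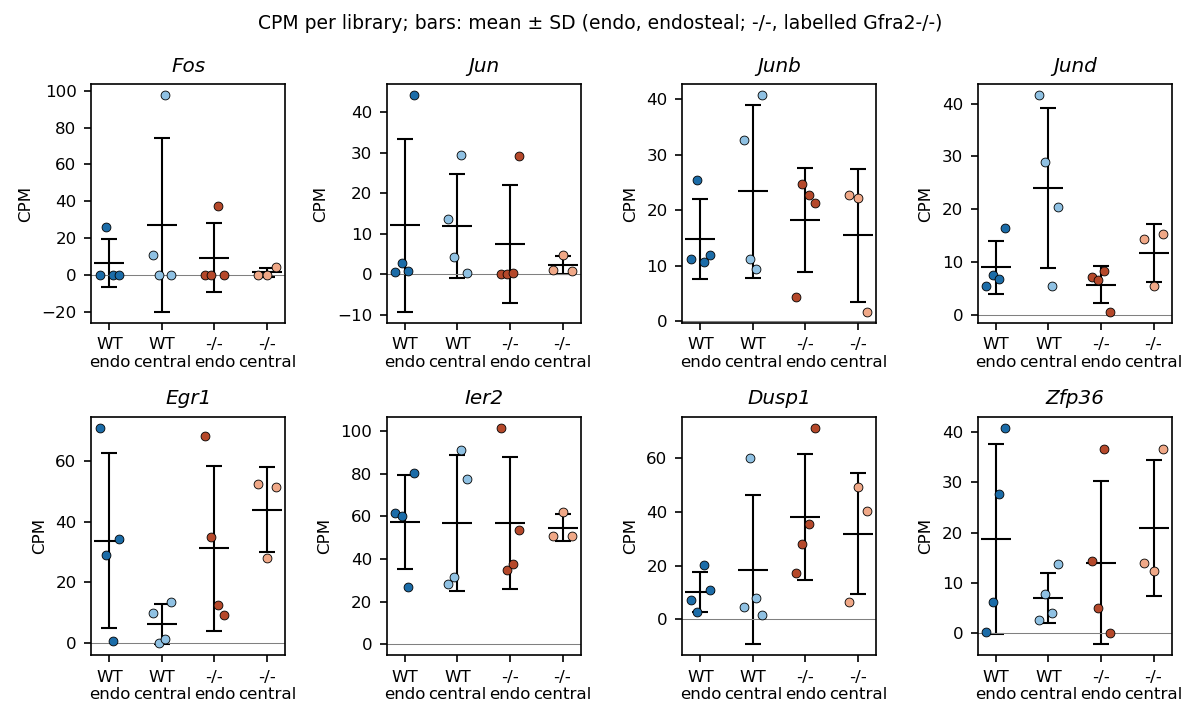
CPM of the 8 members with more than 2 reads, 1 panel a gene and 1 point a library, with the mean and SD of each group. The central WT points of Egr1 (0 to 13.4 CPM) lie below the 3 central points labelled Gfra2-/- (27.9 to 52.4 CPM), and single libraries carry the means of Fos and Jun.

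Levels of different genes were compared per kb of exon. Ier2 was first in all 4 groups, with group means of 35.9 to 37.6 CPM per kb. In endosteal WT HSCs it was followed by Egr1 (7.52 ± 6.43 CPM per kb, SD, n = 4), Junb (6.43 ± 3.10), Jund (5.41 ± 3.004) and Zfp36 (5.40 ± 5.44), whose SDs overlap. In central WT HSCs the next were Jund (14.4 ± 9.11 CPM per kb, n = 4) and Fos (11.5 ± 20.1), and Egr1 was eighth (1.38 ± 1.46). In libraries labelled Gfra2-/- Ier2 was followed by Dusp1 (11.5 ± 7.06 CPM per kb, n = 4) in endosteal HSCs and by Egr1 (9.80 ± 3.10, n = 3) in central HSCs. By CPM, Ier2 was the highest member in 6 libraries, Egr1 in 4, Dusp1 in 2, and Zfp36, Jund and Fos in 1 each. The summed level of all 10 genes varied less than most of the single genes, at 162 ± 59.4 CPM in endosteal (SD, n = 4) and 175 ± 49.2 CPM in central WT HSCs (n = 4), and at 181 ± 33.4 CPM (n = 4) and 182 ± 19.9 CPM (n = 3) in the corresponding libraries labelled Gfra2-/-.

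The first comparison asked whether HSCs in the 2 compartments of WT mice differ in these genes. Egr1 had the largest difference in value, with 33.7 ± 28.8 CPM in endosteal and 6.18 ± 6.54 CPM in central HSCs (SD, n = 4 each), and none of the members passed the test. With edgeR's quasi-likelihood test and Benjamini-Hochberg adjustment, 0 of the 7 members tested passed an FDR of 0.1, against 0.0% of all 11181 genes, and 0 had an unadjusted p under 0.05, against 7.89% of all genes. With DESeq2, 0 of the members passed, against 4.49% of all genes, and 1, Jund, had an unadjusted p under 0.05, against 10.1%. Egr1 had the smallest p of the members in edgeR, with a log2 fold change of 2.40 ± 1.43, where the error of a fold change is its standard error (edgeR FDR = 0.700). Leaving out endosteal library A gave 1.71, and leaving out central library D gave 3.13. Its groups overlapped, and so did those of the other 6 tested members, where 6.37% of all tested genes had groups that did not overlap. The median log2 fold change of the tested members was -0.01, against 0.03 for all genes, with 3 members higher and 4 lower in value in endosteal HSCs (with spike-in scaling Dusp1, and with DESeq2 Jun, took the other sign). The range ran from -1.44 (Jund) to 2.40 (Egr1).

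In libraries labelled Gfra2-/-, too, no member passed the test between endosteal and central HSCs. Egr1 had 31.2 ± 27.2 CPM in endosteal (SD, n = 4) and 43.9 ± 13.9 CPM in central HSCs (n = 3), the opposite order of means to that in WT libraries. With edgeR, 0 of 7 members tested passed, against 0.0% of all 13860 genes, and 0 had an unadjusted p under 0.05, against 4.79%. DESeq2 passed 0 members, against 2.77% of all genes, and gave 0 of them an unadjusted p under 0.05, against 7.22%. No member had groups that did not overlap, against 7.35% of all genes. The member with the smallest p was Jund, with 5.66 ± 3.49 CPM in endosteal and 11.7 ± 5.48 CPM in central HSCs and a log2 fold change of -1.04 ± 1.11 (edgeR FDR = 0.999). Without endosteal libraries B and D it was -0.59. The median log2 fold change of the 7 tested members was 0.06, against 0.03 for all genes, with 4 higher and 3 lower in value in endosteal HSCs. Without endosteal libraries B and D, 3 of 8 tested members were higher and 5 lower, with a median of -0.16. The low-count filter let 8 members through there, against 7 with all libraries. Jun, whose high value in its group lies in library D, took the other sign (1.73 with all libraries, -4.24 without). Dusp1, Junb and Zfp36 also took the other sign, at -0.28, -0.20 and 0.28 without these libraries.

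In central HSCs, the genotypes were compared next. Egr1 was the only member whose groups did not overlap, at 43.9 ± 13.9 CPM in libraries labelled Gfra2-/- (SD, n = 3) against 6.18 ± 6.54 CPM in WT libraries (n = 4). Its log2 fold change was 2.77 ± 1.32 (edgeR unadjusted p = 0.0576, FDR = 0.586), so it did not pass the FDR of 0.1, and DESeq2 gave 2.70 (FDR = 0.262). The exact two-sided permutation test on CPM gave p = 0.0286 (n = 3 and 4), the smallest that this number of libraries allows. A gap between groups was no rarity here, since 12.4% of all 11772 tested genes had groups that did not overlap. With edgeR, 0 of the 8 members tested passed, against 0.051% of all genes, and 0 had an unadjusted p under 0.05, against 8.73%. DESeq2 passed 0 members, against 5.14% of all genes, and 1, Egr1, had an unadjusted p under 0.05, against 10.6%.

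Depth moves with this difference in Egr1, since the central WT libraries were the shallowest. Scaled to 826487 reads, Egr1 would have 45.0, 24.3 and 43.4 reads in the libraries labelled Gfra2-/-, against 7.39, 0, 1 and 10.95 in the WT libraries, and its log2 fold change was 2.79 when all libraries were thinned to the smallest. The neutrophil and monocyte markers of the central WT libraries, in letter order, summed to 401, 322, 2597 and 2217 CPM. Those of the central libraries labelled Gfra2-/- summed to 447, 418 and 1479.6 CPM. WT libraries A and B, with Egr1 at 9.94 and 0 CPM, had a lower marker sum than all 3 libraries labelled Gfra2-/-. WT libraries C and D, with Egr1 at 1.34 and 13.4 CPM, had a higher one than all 3. The part of these markers in the Egr1 difference was not tested. Among libraries with at least 0.5% spike-in reads, Egr1 was at 27.9 to 52.4 CPM in 2 libraries labelled Gfra2-/- and at 0 to 9.94 CPM in 3 WT libraries. In the pair under 0.5% it was at 51.5 and 13.4 CPM. Without central WT library C, the shallowest, the log2 fold change was 2.47 (edgeR FDR = 0.657), and without central WT library D it was 3.54 (edgeR FDR = 0.431). With the set under 0.5% as a term of the fit it was 2.97 (edgeR FDR = 0.607).

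The other members of the central comparison pointed in both directions. In the fits on all libraries, Fos passed the low-count filter here and in the interaction only. It had 1.45 ± 2.51 CPM (n = 3) in libraries labelled Gfra2-/- and 27.1 ± 47.3 CPM (n = 4) in WT libraries, a mean that rests on libraries A and C. Zfp36 was higher in value in libraries labelled Gfra2-/- (20.98 ± 13.6 against 7.06 ± 4.96 CPM) and Jun was lower (2.23 ± 2.24 against 11.9 ± 12.9 CPM), and their groups overlapped. The median log2 fold change of the 8 tested members was -0.36, against 0.03 for all genes, with 3 higher and 5 lower in value.

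In endosteal HSCs, the comparison of genotypes turned on Dusp1. It had 37.96 ± 23.4 CPM in libraries labelled Gfra2-/- and 10.2 ± 7.39 CPM in WT libraries (SD, n = 4 each). Its log2 fold change was 1.90 ± 0.81 (edgeR unadjusted p = 0.0391, FDR = 0.737). It was thus the 1 of 7 members tested with an unadjusted p under 0.05, against 6.69% of all 12970 genes, while 0 members passed the FDR of 0.1, against 0.0% of all genes. DESeq2 gave the same size of difference (log2 fold change 1.91) with an FDR of 0.145, and passed 0 members, against 3.72% of all genes. Dusp1 was also the 1 member with an unadjusted p under 0.05 from DESeq2, against 9.47% of all genes. Groups of 0 members did not overlap, against 6.23% of all genes, and the exact two-sided permutation test on the CPM of Dusp1 gave p = 0.0571 (n = 4 each).

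The highest Dusp1 value, 71.1 CPM, came from endosteal library D labelled Gfra2-/-, which had the lymphocyte and erythroid markers named above. With endosteal library B, it is 1 of the pair with more Gfra2 counts than any WT library. Without both of these libraries its log2 fold change was 1.37 (FDR = 0.992 from edgeR), and without library D alone it was 1.39 with an unadjusted p of 0.145 from edgeR, no longer under 0.05. Leaving out any other library put that p between 0.0209 and 0.0784, above 0.05 without WT library A, B or D or library B or C labelled Gfra2-/-. Among libraries with at least 0.5% spike-in reads, Dusp1 was at 17.2 to 35.6 CPM in 3 libraries labelled Gfra2-/- and at 2.79 to 20.1 CPM in 3 WT libraries, and its log2 fold change was 1.43. With the set under 0.5% as a term of the fit, Dusp1 had a log2 fold change of 1.75 and an unadjusted p of 0.0616 from edgeR. The part of these markers in the result was not tested. Egr1, by contrast, was at nearly the same mean in both genotypes (31.2 and 33.7 CPM), and so was Ier2 (56.9 and 57.2 CPM). The median log2 fold change of the 7 tested members was -0.11, against 0.03 for all genes, with 2 higher and 5 lower in value. Without endosteal libraries B and D, 5 of 8 were higher and 3 lower, with a median of 0.28. Egr1, Ier2, Zfp36 and Junb took the other sign, at 0.27, 0.28, 0.43 and -0.15.

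An interaction term over the 15 libraries asked whether the difference between compartments itself differed between the genotypes. With edgeR, 0 of 8 members tested passed, against 0.0% of all 15416 genes, and 0 had an unadjusted p under 0.05, against 6.97%. DESeq2 passed 0 members, against 1.69% of all genes, and gave 0 of them an unadjusted p under 0.05, against 6.31%. Egr1 had the smallest p, with an interaction term of -2.91 ± 1.71 on the log2 scale (edgeR FDR = 0.770): its endosteal mean was above the central mean in WT libraries and below it in those labelled Gfra2-/-, and that change of order was within the spread between libraries. Without endosteal libraries B and D the term was -2.57 (FDR = 0.901 from edgeR). It was -2.25 without endosteal WT library A, -3.70 without central WT library D and -3.64 without endosteal library A labelled Gfra2-/-. Ier2 lay closest to 0, with a term of 0.05 ± 0.80, which was 0.30 without endosteal libraries B and D. The 4 pairwise comparisons share groups and are not independent of each other.

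**Figure D3:**
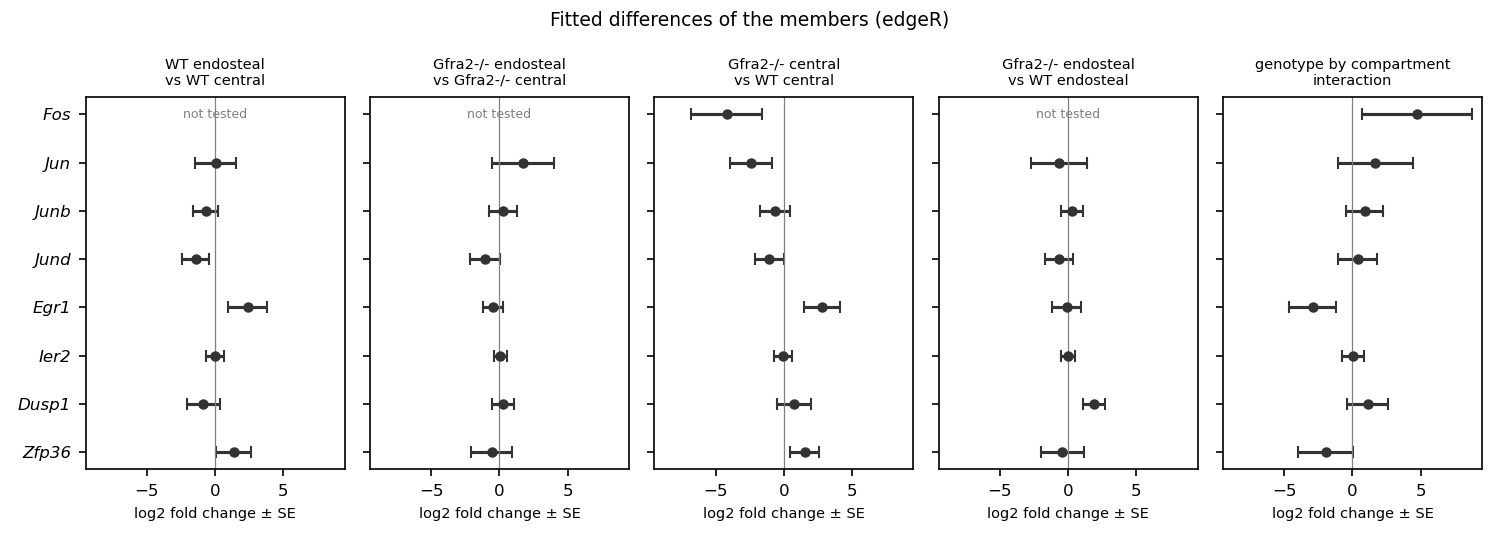
Fitted log2 fold change (points) and standard error (bars) of the members tested in each of the 5 comparisons, positive where the group named first was higher. Ier2 stays near 0 with the narrowest bars, Egr1 is at 2.40 in the WT compartments and 2.77 in the central genotypes, and Dusp1 is at 1.90 in the endosteal genotypes.

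Within groups, the members spread unevenly. The biological coefficient of variation (the relative spread between libraries beyond counting error, as edgeR fits it over the 15 libraries) was 2.71 for Fos, higher than for 98.6% of the tested genes, and 1.64 for Jun, higher than for 81.2%. Ier2 had 0.55, higher than for only 18.3%, and it was also the most abundant. The other 5 ranged from 0.87 (Junb) to 1.25 (Zfp36), and the median of all tested genes was 0.93.

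**Figure D4:**
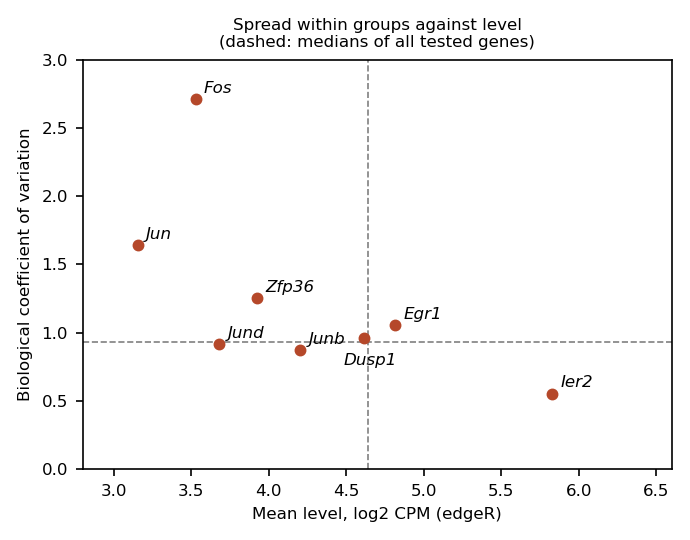
Biological coefficient of variation (vertical axis) against the mean level in log2 CPM (horizontal axis) of the 8 members that passed the low-count filter, with the medians of all tested genes as dashed lines. Fos, at 2.71, stands far above the others, and Ier2, at 0.55, is the steadiest and most abundant.

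The members did not rise and fall together from library to library. Over the 15 libraries, the 28 pairs of the 8 members had a median Spearman's rho of -0.03, against 0.01 for pairs of all genes, and 13 of the pairs were positive. The highest was 0.44 (Jund and Zfp36) and the lowest -0.48 (Junb and Dusp1). Fos and Jun, the classical AP-1 pair, had a rho of 0.19, and Fos and Egr1 one of -0.08. These values describe libraries that share depth and group differences.

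The genes most like Fos over the 15 libraries, by Pearson's r of log2(CPM + 1), were Zfp459 (r = 0.89), 0610030E20Rik (0.87), 9330182L06Rik (0.82), Atxn7l3 (0.80) and Uxt (0.80). Their Spearman's rho with Fos was 0.81, 0.68, 0.80, 0.84 and 0.53. In the same order, r was 0.83, 0.73, 0.56, 0.80 and 0.63 without the 2 libraries farthest in Fos, central WT library C and endosteal library C labelled Gfra2-/-. Since most libraries had no or hardly any Fos and 5 had more, the values fall into separate sets, and r over all of them is only a description of likeness. By the same measure over the 15 libraries, Jun was the most Fos-like member (r = 0.22, rank 2896 among 15415 genes) and Dusp1 the least (r = -0.23, rank 10987). Without the 2 libraries farthest in Fos, r was 0.13 for Jun and -0.39 for Dusp1. Among libraries with at least 0.5% spike-in reads it was 0.53 for Jun and -0.39 for Dusp1.

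Genes around the members were described by lists compiled by hand from general knowledge, with earlier results of these data known. In none of the 5 lists and 5 comparisons did a gene pass the FDR of 0.1 with edgeR. Of the 26 other AP-1 and ATF/CREB bZIP genes, which share the dimerization domain, 18 were tested between the WT compartments, with a median log2 fold change of -0.48, against 0.03 for all genes. There, 2 of the 18 had an unadjusted p under 0.05, against 7.89% of all genes, and both were lower in value in endosteal HSCs. These were Fosl2, a Fos relative, at 5.55 ± 6.19 CPM in endosteal and 47.7 ± 67.6 CPM in central HSCs (n = 4 each), and Atf4, the factor of the integrated stress response, at 113 ± 37.3 and 205 ± 34.0 CPM. Atf4 was lower in value in endosteal HSCs of libraries labelled Gfra2-/- as well, at 78.8 ± 22.1 (n = 4) against 139 ± 12.2 CPM (n = 3), with a log2 fold change of -0.82 ± 0.33 (edgeR FDR = 0.999), and of -0.53 without endosteal libraries B and D. There Maf, a bZIP gene of the large Maf proteins, was higher in value in endosteal HSCs (7.88 ± 7.96 against 0.689 ± 0.467 CPM). Between endosteal genotypes the smallest p was that of Atf2, a partner of Jun, at 189 ± 82.6 CPM in libraries labelled Gfra2-/- and 81.5 ± 39.3 CPM in WT libraries (n = 4 each). The log2 fold change of Atf2 was 1.22, and 0.86 without libraries B and D. Between central genotypes 0 of 19 had an unadjusted p under 0.05, against 8.73% of all genes, and the median was 0.04.

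Of 41 other immediate-early genes, 39 were in the table and 22 to 30 were tested. Irf1, an interferon-induced transcription factor, had the smallest p in 4 of the 5 comparisons. It was at 71.1 ± 50.1 CPM in endosteal and 193 ± 72.2 CPM in central WT libraries (n = 4 each), and at 188 ± 74.2 (n = 4) and 92.6 ± 31.2 CPM (n = 3) in those labelled Gfra2-/-. Its interaction term was 2.46 ± 0.68 on the log2 scale (edgeR FDR = 0.523), and 2.14 without endosteal libraries B and D (edgeR FDR = 0.716). Klf4, a zinc finger factor, was second in the interaction (edgeR FDR = 0.673). Pim1, a kinase gene downstream of cytokine receptors, was at 44.1 ± 17.3 CPM in endosteal WT, 104 ± 37.6 CPM in central WT (n = 4 each) and 34.7 ± 4.46 CPM in central libraries labelled Gfra2-/- (n = 3). Ier5 was at 5.65 ± 5.23 CPM in the latter and 38.5 ± 23.2 CPM in central WT libraries. The median log2 fold change of this list was -0.52 between the WT compartments and -0.40 between the central genotypes, both contrasts that contain the shallow central WT libraries, and -0.07 and -0.16 in the other 2.

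Of 27 inducers, the kinases and factors that switch immediate-early genes on, 25 were in the table and 23 or 24 were tested. Mapk3, which encodes ERK1, had the smallest p in both genotype comparisons. In central HSCs it was at 48.1 ± 22.4 CPM in libraries labelled Gfra2-/- (n = 3) and 181 ± 65.9 CPM in WT libraries (n = 4), a log2 fold change of -1.93 ± 0.54 (edgeR FDR = 0.318). In endosteal HSCs it was at 38.6 ± 12.6 and 104 ± 37.7 CPM (n = 4 each), a log2 fold change of -1.42 ± 0.43 (edgeR FDR = 0.689), and of -1.41 without libraries B and D. Rps6ka1, which encodes a ribosomal S6 kinase that ERK activates, was higher in value in central libraries labelled Gfra2-/-, at 165 ± 25.5 CPM (n = 3) against 55.4 ± 19.1 CPM in WT libraries (n = 4), a log2 fold change of 1.55 ± 0.49 (edgeR FDR = 0.364). Elk4, a ternary complex factor that works with serum response factor, was at 82.5 ± 12.4 CPM in endosteal WT, 178 ± 75.2 CPM in central WT and 159 ± 58.7 CPM in endosteal libraries labelled Gfra2-/- (n = 4 each). Between endosteal genotypes its log2 fold change was 0.96, and 0.53 without libraries B and D. The median log2 fold change of the list was -0.16 and 0.15 between compartments (WT, labelled Gfra2-/-), and -0.48 and 0.21 between genotypes (central, endosteal).

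All 20 genes of mRNA decay by the tristetraprolin family were tested, and their medians stayed between -0.30 and 0.20 over the 5 comparisons. Cnot6, a deadenylase, was at 139 ± 57.5 CPM (n = 3) in central libraries labelled Gfra2-/- and 365 ± 123 CPM (n = 4) in central WT libraries, and Khsrp, another binder of AU-rich elements, at 69.5 ± 29.02 and 198 ± 57.1 CPM. Hnrnpd was at 47.1 ± 20.97 CPM in endosteal libraries labelled Gfra2-/- and 128 ± 67.5 CPM in endosteal WT libraries (n = 4 each), a log2 fold change of -1.44, and of -1.50 without libraries B and D. Cnot7, a deadenylase, was higher in value in the same comparison (176 ± 42.3 against 95.1 ± 29.4 CPM). Of the CCR4-NOT subunits, Cnot2 and Cnot1 were higher in value in endosteal than in central libraries labelled Gfra2-/- (151 ± 36.5 against 82.5 ± 33.7 CPM, and 140 ± 44.9 against 77.6 ± 17.7 CPM, n = 4 and 3).

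Heat shock genes that often rise with Fos and Jun during tissue dissociation were a list of 12, of which 9 were tested. Their median log2 fold change was -0.14 between the WT compartments and 0.19 between those of libraries labelled Gfra2-/-, where 8 of the 9 were higher in value in endosteal HSCs, also without endosteal libraries B and D. Hspa8, which encodes the constitutive chaperone HSC70, was at 241 ± 24.4 CPM in endosteal libraries labelled Gfra2-/-, 155 ± 16.6 CPM in the central ones (n = 3) and 116 ± 30.1 CPM in endosteal WT libraries (n = 4). Its log2 fold change between endosteal genotypes was 1.05 ± 0.27 (edgeR FDR = 0.601), and 0.95 without libraries B and D. Hspa5, the chaperone of the endoplasmic reticulum, had a log2 fold change of 0.67 there, and 0.71 without these libraries. The list as a whole did not rise between endosteal genotypes: 4 of the 9 were higher and 5 lower in value. Their median there was -0.20, against 0.03 for all genes. Without endosteal libraries B and D, 3 were higher and 6 lower. Hsp90ab1, which encodes a constitutive HSP90, had one of -0.48 between central genotypes (edgeR FDR = 0.401). Dnajb1, a co-chaperone of the heat shock response, was at 110 ± 21.2 CPM in endosteal and 248 ± 165 CPM in central WT libraries (n = 4 each).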

How the data were processed

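RNA from pools of 30 sorted HSCs was amplified by Smart-seq2 without molecular identifiers and sequenced as 50-bp single-end reads. The authors aligned the reads with GSNAP to GRCm38 (mm10) and counted them per gene with HTSeq (0.5.3p3), ignoring strand. They deposited raw counts of 46078 genes, 92 spike-ins and 5 summary categories (54.6 to 80.3% of a library, left out here), without normalization. The labels describe 16 samples, 15 columns were used, and 1 column of per-sample values was mapped to no sample and not used. The columns name their group through the library lists of the study and carry no replicate numbers. Positions came from GENCODE M21.

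The 10 members and all lists were chosen with earlier results of these data known. Each comparison was fitted on its own groups with edgeR 4.0.16 (R 4.3.3): filterByExpr, TMM, quasi-likelihood test, Benjamini-Hochberg adjustment over all genes tested, FDR 0.1. The interaction used all 15 libraries. The scripts were tested on simulated data with less spread between libraries than the median tested gene had here. That test therefore does not measure power or error in these data. CPM are counts scaled to TMM-adjusted totals over the 15 libraries, likeness used log2(CPM + 1), and exact permutation tests were two-sided. DESeq2 1.42.0 was an alternative. A fold change was printed for a member where its unadjusted p was under 0.05 or its groups did not overlap, otherwise for the member with the smallest p. From each list, of the 2 genes with the smallest p in a comparison, those with an unadjusted p under 0.05 were named. Reads on genes ranged from 826487 to 18550008 per library, and intervals or floors cover counting error only, since PCR copies are not independent molecules. The alternatives were other size factors, filters on low counts, thinning, sets of libraries and thresholds.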

Additional observations from a re-analysis of the deposited data

Results flagged for a closer look

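In groups of 4 libraries, single libraries stood far from the others of their group by Dixon's test in 9 of 25 gene and group combinations, where chance gives about 1 in 20 for normally distributed values. These CPM are skewed, and over all genes past the low-count filter the share was 19.4% of 45071 combinations. For the members past that filter it was 8 of 24 combinations, and for all members tested 36%. Groups of 3, and groups with no read, were not tested.

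Fos was carried by 1 library in 3 groups, at 25.9 CPM in endosteal WT library B (389 reads), 97.6 CPM in central WT library C (73 reads) and 37.6 CPM in endosteal library C labelled Gfra2-/- (326 reads). The next library of each group was at 0.163, 10.8 and 0.0675 CPM. Central WT library C had 1494725 uniquely aligned reads, under the study's quality cut-off of 1500000. It also had the highest sum of neutrophil and monocyte markers (2597 CPM). The part of depth and of these markers in its Fos level was not tested. Fosb met the test in central WT library C on its single read (1.34 CPM), which it must, since the other libraries of that group were at 0.

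Jun was carried by endosteal WT library D, at 44.2 CPM against 2.86 CPM in the next, and by endosteal library D labelled Gfra2-/-, at 29.2 CPM against 0.231 CPM. Both libraries D belong to the set with under 0.5% spike-in reads, whose part in the result was not tested. The other 2 libraries of that set had 0.336 CPM (central WT library D) and 0.768 CPM (central library C labelled Gfra2-/-).

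Junb stood high in endosteal WT library B (25.5 CPM, next 11.8 CPM), which is also the library that carried Fos in its group, and low in endosteal library A labelled Gfra2-/- (4.39 CPM, next 21.2 CPM). Dusp1 stood high in central WT library B, at 59.9 CPM against 8.02 CPM in the next.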

How the results depend on the processing

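Under every alternative run, 0 members passed the FDR. The fold change of the member with the smallest p in each comparison kept its direction. It was 1.28 to 3.13 and 1.97 to 3.54 for Egr1 (WT compartments, central genotypes), -2.10 to -0.40 for Jund, 1.37 to 2.47 for Dusp1 and -3.70 to -2.25 for Egr1 in the interaction. Other members took the other sign under some alternatives, as given above. Counts of all genes past the FDR did depend on the processing, and the cause was not tested. DESeq2 gave 606 and 397 genes between compartments (WT, labelled Gfra2-/-), 725 and 535 between genotypes (central, endosteal) and 245 for the interaction, where edgeR gave 0, 0, 6, 0 and 0. Spike-in scaling put the median of all genes (log2 fold change) at 1.58, -0.46, 1.75, -0.28 and -2.18. It gave 15 genes between compartments labelled Gfra2-/-, 2 and 6 between central and endosteal genotypes and 193 for the interaction. Those genes passed a test of the fold change before the median was taken off. Only the fold changes with spike-in scaling were taken relative to these medians. Without a filter there were 58 genes between WT compartments and 134 between central genotypes, with at least 10 counts in every library 11 and 29, and after thinning 4 and 16. Fitting all 4 groups together gave 22 genes between WT compartments and 1 between endosteal genotypes. Between central genotypes an FDR of 0.05 and the quality cut-offs each left 0, and libraries with at least 0.5% spike-in reads 1. Leaving out single libraries gave 0 to 6 genes between WT compartments (6 without endosteal library A) and 0 to 8 between central genotypes (0 without any one WT library or library A labelled Gfra2-/-, and 1 without library B). For likeness to Fos, 0 genes passed, 1028 had an unadjusted p under 0.05, and 13 passed with group means removed and 2 after thinning. With the set of libraries under 0.5% spike-in reads as a term, 1 gene passed between WT compartments. This fit, and those without endosteal libraries B and D, were chosen after seeing the data. Egr1 and Jund could not be fitted with at least 10 counts in every library in the comparisons where a library was below that.

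No paired analysis was possible because no replicate number is attached to the columns of counts, so the planned replicate block was not run. Depth limits detection: after thinning to 826487 reads, Jun was read in 11 libraries in place of 14, Fos in 5 in place of 7 and Atf3 in 0 in place of 1.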
